A study of Homo sapiens with 8 samples.

Results

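Human embryonic stem cells of the lines H1 and H9 were compared for how far their transcripts changed when the cells went from undifferentiated culture into embryoid bodies (EB), and for which genes that change differed between the lines. The quantity described is the difference of the EB change: EB minus undifferentiated in H9, minus EB minus undifferentiated in H1, on log2(signal + 16). A positive value, called higher in H9, means that a gene rose more or fell less in H9 as labelled, and a negative value, called lower in H9, means the opposite. All 8 arrays of the series enter this contrast, 2 in each of 4 groups. Of 19775 genes with a probe set annotated to a single symbol, 35 were left out and 14041 were tested, those whose signal was above the median of its array on at least 2 arrays.

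Total RNA was measured as biotinylated cRNA on Affymetrix Human Genome U133 Plus 2.0 arrays. Undifferentiated H1 and undifferentiated H9 were grown in mTeSR1, a defined medium for pluripotent cells. H1 EB and H9 EB came from cells dissociated with Accutase and held for 3 days in ultra low attachment plates, in hESGM lacking bFGF and with 10 µM Y-27632, an inhibitor of the kinase ROCK. H1 and H9 are established lines, each derived from a single embryo. The labels call the arrays biological replicates without saying which cultures they came from, and any p-value covers no more than the spread among these arrays. Line, and any passage or culture day that differed between the lines, cannot be told apart, and medium, attachment and the compound changed together with the state in both lines.

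Each array had the same trimmed mean signal, 500.1, and array medians lay between 68.7 and 86.0. An identity check found that 2 of the 8 libraries went against their group's labels. H9 EB, and every change or difference given for H9, therefore refer to arrays as labelled, and the contrast cannot be formed without the H9 EB group. Genes silent in one undifferentiated line show how these arrays read. CRYZ, a quinone oxidoreductase, read 3729 and 3949 in undifferentiated H1, 4470 and 4198 in H1 EB, 50.1 and 30.1 in undifferentiated H9, and 1406 and 1384 on the arrays labelled H9 EB. In a set of 5 such genes that changed little in H1, the arrays labelled H9 EB stood 18.4% to 31.6% of the way from undifferentiated H9 up to H1 EB (median 25.0%). TCEAL2, a transcription elongation factor-like gene that was dim in both H1 groups, read 1564 and 1447 in undifferentiated H9 and 420 and 362 on the arrays labelled H9 EB. In the reverse set of 3 genes these arrays stood 25.3% to 53.6% of the way from H1 EB up to undifferentiated H9 (median 32.3%). The part of these signals in the results was not tested. The difference between undifferentiated H9 and undifferentiated H1, given beside the gene groups, uses none of these arrays.

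The labelled cell type was checked against its markers. Of 10 markers of pluripotent stem cells 9 have a single-symbol probe set, and all 9 were above the array median on every array, EB included. Their summed signal was 135353 to 137353 in undifferentiated H1, 126650 to 131648 in undifferentiated H9, 88313 to 88424 in H1 EB and 99560 to 101903 on the arrays labelled H9 EB. Of 12 measured blood and immune markers 6 were above the array median on no array and 1 on every array. Of 14 markers of mature tissues these counts were 6 and 3. In H1 EB 4 blood markers were above it on both arrays, against 1 in undifferentiated H1, 3 in undifferentiated H9 and 1 in H9 EB as labelled. An array median has as many probe sets below as above it, so these counts cannot exclude such cells.

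In embryoid bodies, dissociated stem cells aggregate in suspension and leave pluripotency along several lineages at once. Signals of the NODAL, BMP, WNT and FGF families steer the choice between endoderm, mesoderm and ectoderm, and lines of human stem cells are known to differ in the lineages they favour. Pluripotency factors, endoderm products such as the apolipoproteins, forebrain factors such as PAX6 and neural crest factors such as TFAP2A read out different branches of this process. In RNA from whole cultures, fewer cells of a kind and less RNA per cell cannot be told apart.

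The EB change was called in H1 for 57.7% of the tested genes and in H9 as labelled for 60.6% (limma, Benjamini-Hochberg adjusted p under 0.05). Across genes, which are not independent, the changes of the lines, which share no array, correlated at r = 0.825 (Spearman rho 0.747). The difference of the EB change was called for 3185 of 14041 genes, 22.7%, of which 1604 (11.4% of those tested) were higher in H9 and 1581 (11.3%) lower. Most of these differences were small: 294 genes (2.09%) were higher in H9 by at least 1 on the log2 scale and 247 (1.76%) lower, against a median size of 0.27 over all genes and a median SE of 0.16. Among the 182 genes whose mean change over the lines was a rise of more than 3, 41.8% were called, against 21.7% of genes whose mean change lay within 1 of 0.

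The direction of small differences depends on the scaling. Higher genes made up 50.4% of the calls, and 33.9% when each array was centred on its median, with 1084 higher and 2112 lower, since centring moved the median difference of all genes from 0.01 to -0.07. The counts also rest in part on single arrays: without H1 EB replicate 1 they were 995 higher and 1022 lower, without H9 EB replicate 1 they were 1006 and 1050, and without H9 EB replicate 2 they were 1068 and 1130.

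**Figure D1:**
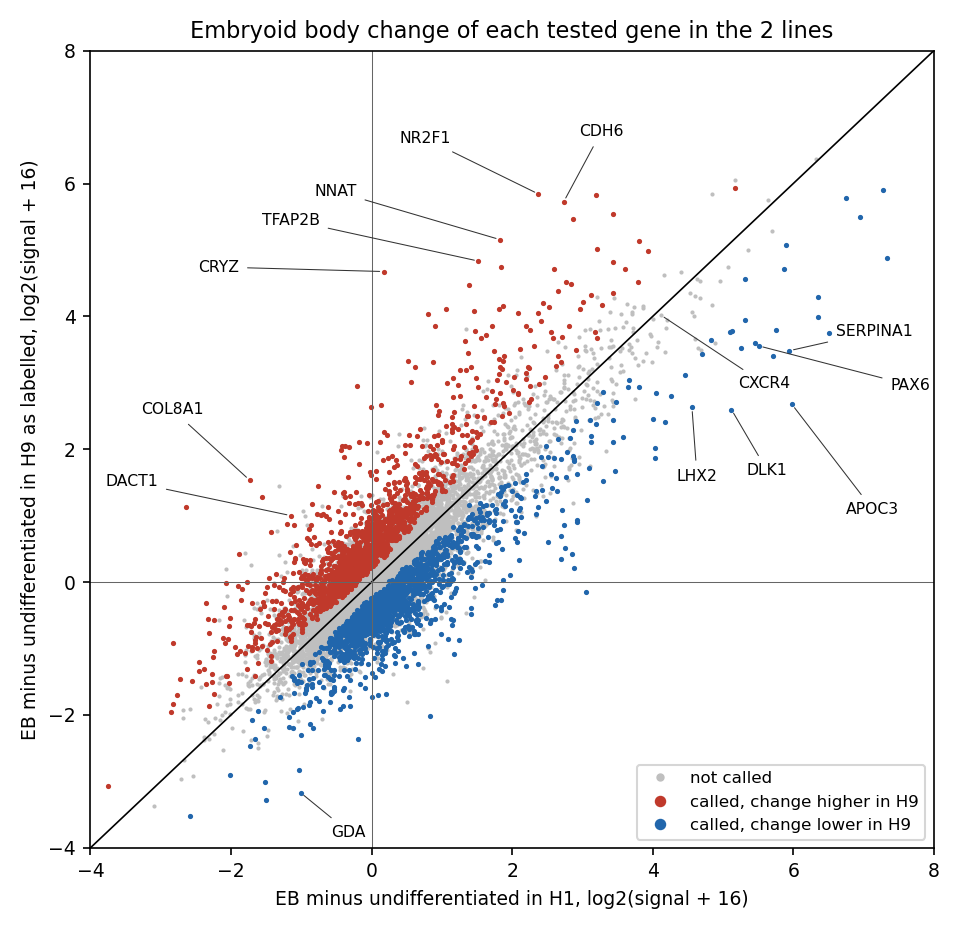
Change from undifferentiated cells to EB in H1 (horizontal axis) and in H9 as labelled (vertical axis), each a difference of group means of log2(signal + 16), with 1 point per tested gene. The diagonal marks equal changes; genes called higher in H9 lie above it in red, genes called lower lie below it in blue, uncalled genes are grey, and most points follow the diagonal (r = 0.825).

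The called genes had unlike paths in the lines. Among the 1604 genes higher in H9, 412 (25.7%) rose in both lines and 235 (14.7%) fell in both. A further 430 (26.8%) rose in H9 without being called in H1, 387 (24.1%) fell in H1 without being called in H9, and 125 (7.79%) fell in H1 and rose in H9. Among the 1581 genes lower in H9, 298 (18.8%) rose in both lines and 329 (20.8%) fell in both. In this group 476 (30.1%) fell in H9 without being called in H1, 311 (19.7%) rose in H1 without being called in H9, and 156 (9.87%) rose in H1 and fell in H9. The remaining 15 and 11 genes were called in neither line.

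A difference of change can arise from a gap between the lines before differentiation, after it, or both. The lines differed at 26.1% of genes when undifferentiated and at 15.2% as EB, and 389 and 141 of these differences were at least 1 in size. For 782 of the genes higher in H9, undifferentiated H9 was below undifferentiated H1 and the EB groups were not called apart. For 377 the undifferentiated groups were not called apart and the arrays labelled H9 EB were above H1 EB, and for 182 H9 was below H1 before and above it after. The matching numbers for genes lower in H9 were 740, 313 and 293. The gap in undifferentiated cells was the larger of the pair for 1015 (63.3%) of the genes higher in H9 and for 996 (63.0%) of those lower. These line differences share arrays with the difference of the EB change and describe it without testing it. Statements below on whether groups overlap compare 2 arrays with 2. They describe the signals only, and no share over all genes stands beside them.

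Among genes not dim in any group, CDH6, a cadherin of kidney and neural crest, led. It read 575 and 549 in undifferentiated H1, 3782 and 3886 in H1 EB, 106 and 127 in undifferentiated H9, and 7178 and 6767 on the arrays labelled H9 EB. The rise was 2.74 ± 0.086 (SE) in H1 and 5.73 ± 0.086 in H9, a difference of 2.99 ± 0.12 (limma adjusted p = 5.77e-07). H9 was below H1 on every undifferentiated array and above it on every EB array. CAT, the catalase gene, differed by 2.81 ± 0.30, and QPCT, which forms pyroglutamate at peptide ends, by 2.45 ± 0.13. For both the larger gap lay in undifferentiated cells, where CAT read 1517 and 1607 in H1 but 92.8 and 45.1 in H9. SEMA3C, a semaphorin guidance cue (2.31 ± 0.15), IGFBP7, a secreted growth factor binding protein (2.29 ± 0.19), and ANXA1, an annexin (2.08 ± 0.12), rose in both lines and further in H9, each from a lower start.

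On the other side stood DLK1, a Notch-like transmembrane protein from an imprinted gene (-2.52 ± 0.13). HINT3, a nucleotide hydrolase, rose from 215 and 303 to 1694 and 1797 in H1 and from 829 and 815 to 1065 and 1032 in H9, a difference of -2.35 ± 0.18 (limma adjusted p = 3.92e-05). GATM, which makes the precursor of creatine, rose from 959 and 922 to 3514 and 3996 in H1 and read 2268 and 2079 and then 2281 and 2382 in H9. Both genes started higher and ended lower in H9. LINC00458, a noncoding RNA of pluripotent cells, fell from 3773 and 3875 to 1367 and 1323 in H1 and from 7358 and 6975 to 737 and 709.8 in H9, a difference of -1.78 ± 0.084. GDA, guanine deaminase, fell in both lines and further in H9 (-2.16 ± 0.15). GATM was no longer called when its probe sets were averaged, nor were GDA and DLK1 when probe sets of a kind that can match related transcripts were left out.

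Of the called genes 126 higher and 88 lower in H9 were dim in at least 1 group, that is below the array median on both arrays. For 89 and 41 of them a bound on the difference could be set by raising the dim signal to the median of its array. Such a bound allows for the dim signal and not for the spread among arrays. NR2F1, a nuclear receptor of neural crest and caudal forebrain, read 467 and 454 in undifferentiated H1, 2531 and 2387 in H1 EB, 67.3 and 60.8 in undifferentiated H9, where it was dim, and 4356 and 4807 on the arrays labelled H9 EB. Its rise in H9 exceeded that in H1 at least 10.3-fold. Only CRYZ had a higher bound, 14.6-fold, and the next were COL8A1, a short-chain collagen (6.23-fold), NNAT, the imprinted neuronatin gene (5.97-fold), TFAP2B (5.23-fold) and GDF7, a BMP-type ligand of the roof plate (4.51-fold). The bounds on the other side were smaller. MIA2, a cargo receptor of the secretory pathway, had 3.29-fold, AGT, angiotensinogen, 3.12-fold, and SIX3, a factor of eye and forebrain, 2.97-fold. MIA2 was no longer called when its probe sets were averaged.

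**Figure D2:**
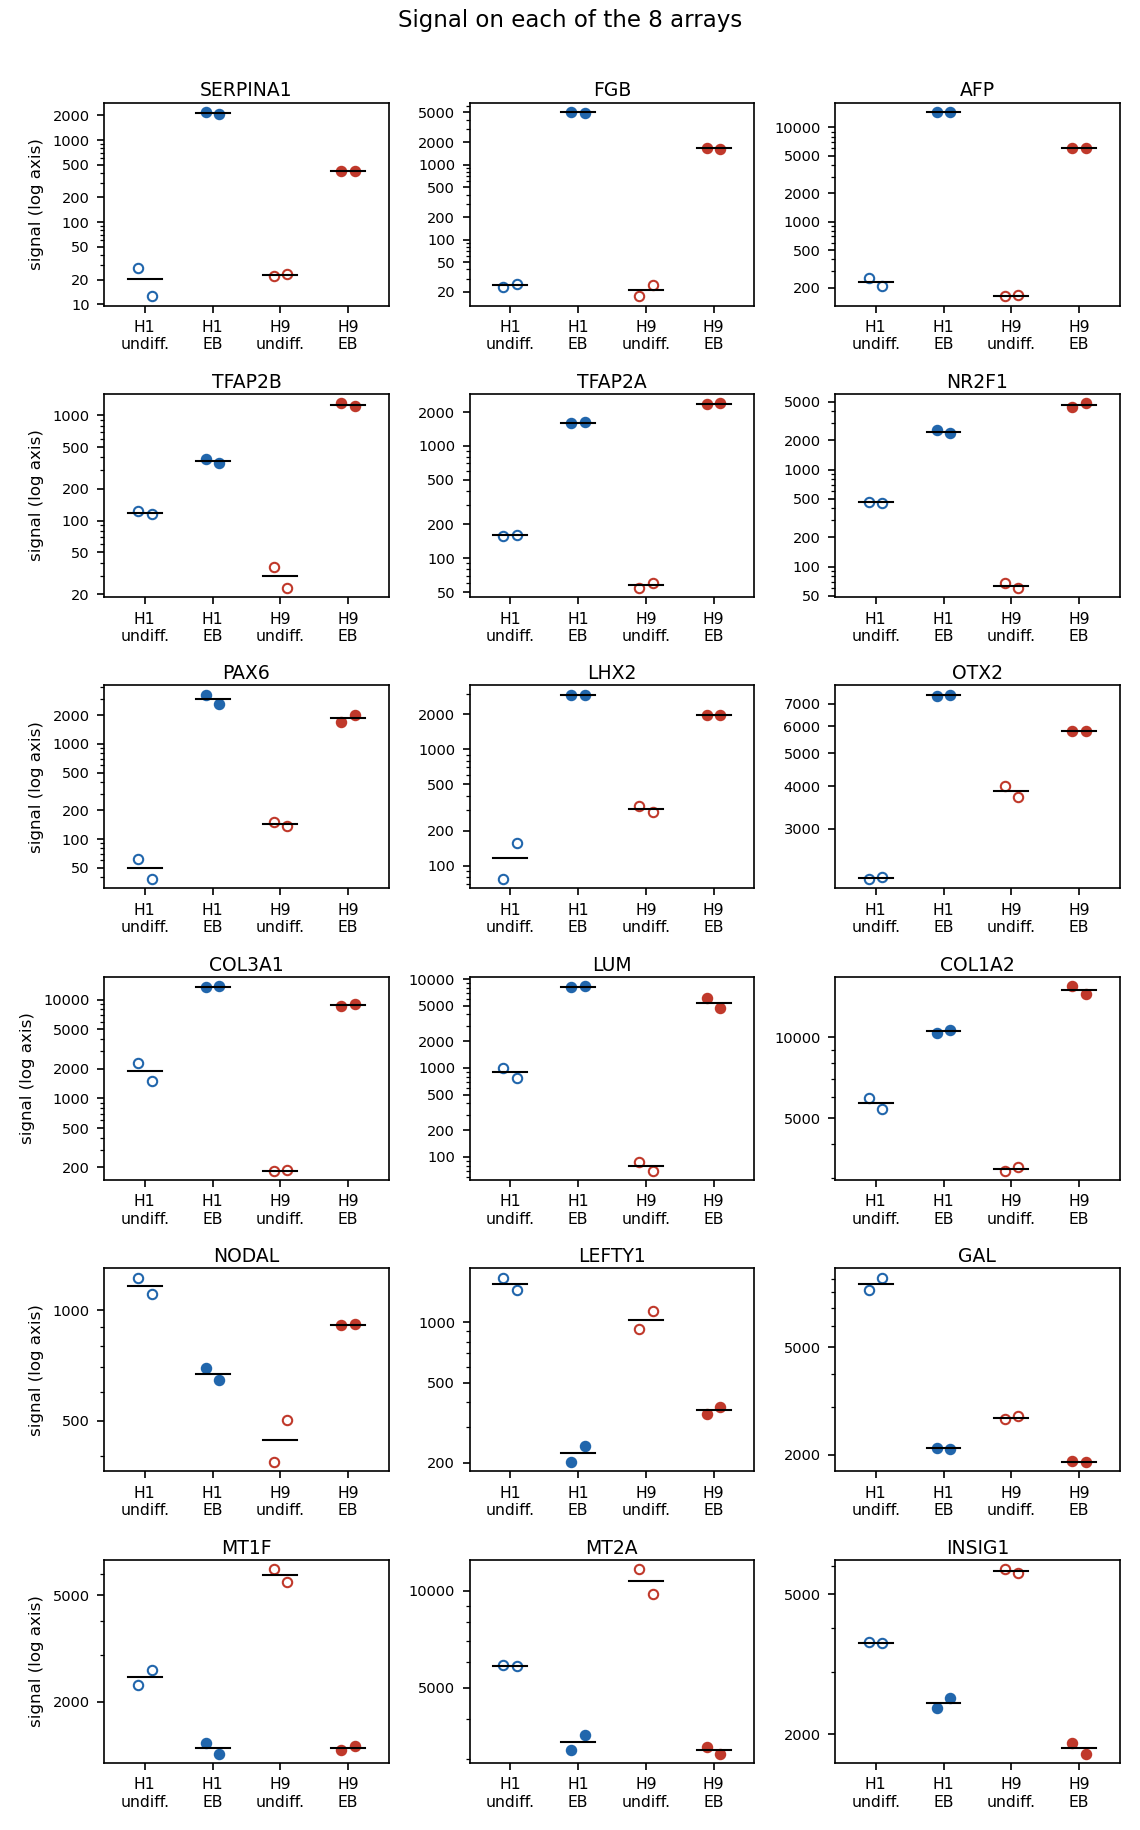
Deposited signal of 18 genes on each of the 8 arrays, on log axes; open circles are undifferentiated cells, filled circles EB, blue H1 and red H9 as labelled, and black bars are means of the 2 arrays of a group. SERPINA1, FGB and AFP end higher in H1 EB, while TFAP2B, TFAP2A and NR2F1 start lower in undifferentiated H9 and end higher on the arrays labelled H9 EB.

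Genes for proteins that liver-type endoderm secretes rose less in H9. Of 24 on the list 22 were tested, of which 16 (72.7%) were lower in H9 and 1 (4.5%) higher, with a median difference of -1.38 against 0.01 over all genes. This count, like that of every list below, is read against the background of all tested genes, 11.3% lower and 11.4% higher. In undifferentiated cells the median of H9 minus H1 was 0.13, and as EB it was -1.14. SERPINA1, which encodes the protease inhibitor alpha-1-antitrypsin, read 27.7 and 12.5 in undifferentiated H1 and 22.2 and 23.0 in undifferentiated H9, dim in both. It reached 2217 and 2104 in H1 EB but 418 and 415 on the arrays labelled H9 EB. The EB groups did not overlap and differed by -2.33 on the log2 scale (limma adjusted p = 9.29e-05).

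Fibrinogen, the soluble precursor of fibrin, moved in the same way in its 3 chains. FGB reached 5087 and 4905 in H1 EB and 1675 and 1641 on the arrays labelled H9 EB, from dim signals in all undifferentiated cells. The difference of its EB change was -1.44 ± 0.18 (limma adjusted p = 0.00051), and those of FGG and FGA were -2.05 ± 0.25 and -1.37 ± 0.19. AFP, a fetal relative of albumin, rose from 252 and 206 to 14680 and 14454 in H1 and from 161 and 167 to 6040 and 6117 in H9, a difference of -0.82 ± 0.12 (limma adjusted p = 0.00119). The EB groups of AFP did not overlap, and its undifferentiated groups, with H9 the lower, did not either.

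The carriers of lipid, retinol and iron followed. APOC3 reached 1171 and 1318 in H1 EB and 208 and 198 on the arrays labelled H9 EB (-3.31 ± 0.43), and APOA4 2396 and 2204 and 526 and 409 (-2.75 ± 0.38). Differences of the same sign were called for the apolipoprotein genes APOM (-1.15 ± 0.16), APOA2 (-0.97 ± 0.15) and APOC1 (-0.64 ± 0.071). APOB, the structural protein of lipoprotein particles, differed by -0.41 ± 0.24 and was not called (limma adjusted p = 0.249), and APOE differed by 0.22 ± 0.078 (limma adjusted p = 0.0707). RBP4, the plasma carrier of retinol, reached 2829 and 3282 in H1 EB against 827 and 847, and transferrin (TF) 1950 and 2128 against 259.7 and 281. AHSG, fetuin-A, stood furthest apart of the called members as EB, at 1982 and 1884 against 220.2 and 233.

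The exception was SPP1, osteopontin, a secreted phosphoprotein of bone and many epithelia. It read 1663 and 1595 in undifferentiated H1, 1403 and 1502 in H1 EB, 1697 and 1541 in undifferentiated H9, and 3050 and 2996 on the arrays labelled H9 EB, so that it rose in H9 and was not called in H1 (1.06 ± 0.10). The calls of TTR and APOA1 were lost in 12 and 8 of 18 alternatives. Both were lost without any of several single arrays, all 4 EB arrays among them, and that of TTR also with quantile normalization or centring. The call of ALB was lost without either H1 EB array, that of TF with an offset of 1, and that of APOC1 when its probe sets were averaged. Of the 22 genes 16 were read by probe sets of a kind that can match related transcripts; without such probe sets 10 could be tested, of which 5 were lower and 0 higher, with a median of -0.78, and SERPINA1 and FGA among those no longer called; APOA1 then read 0.06 in place of -1.38 ± 0.38.

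The transcription factors and receptors that set up endoderm were mostly not called. Of 15 tested 1 was lower in H9 and 0 were higher in limma, with a median of -0.09. At an unadjusted p under 0.05 there were 4 lower and 1 higher. Over the 18 alternatives 0 to 4 were called lower and 0 to 1 higher. SOX17, a factor of definitive and extraembryonic endoderm, reached 1214 and 1331 in H1 EB and 1060 and 1059 on the arrays labelled H9 EB, a difference of -0.37 ± 0.21 (limma adjusted p = 0.231). GATA6, a factor of early endoderm, reached 3251 and 3208 against 1992 and 2062, a difference of -0.67 ± 0.22 that missed the threshold (limma adjusted p = 0.0509). The EB values of both genes were lower on the arrays labelled H9 EB without overlap. FOXA1 and GATA4, dim in both undifferentiated groups, were not called, at -1.09 ± 0.38 (limma adjusted p = 0.063) and -0.74 ± 0.28 (limma adjusted p = 0.0798). As EB H9 was called lower for FOXA1 (-1.04, limma adjusted p = 0.0268) and not for GATA4 (-0.53, limma adjusted p = 0.0972). FOXA2, a pioneer factor of endoderm, differed in the other direction by 0.52 ± 0.21 (limma adjusted p = 0.0969). LINC00261, a noncoding RNA beside FOXA2, was dim in all undifferentiated cells and reached 2148 and 2081 against 1935 and 2142, which overlap. The single call, SOX7 (-0.86 ± 0.25), was lost without undifferentiated H1 replicate 1 or 2, H1 EB replicate 1 or 2, undifferentiated H9 replicate 1, or H9 EB replicate 2. Without undifferentiated H9 replicate 2 the counts were 2 lower and 1 higher, and without undifferentiated H9 replicate 1 they were 2 and 0.

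Neural crest and neural plate border genes went the other way. Of 18 tested 12 (66.7%) were higher in H9, against a background of 11.4%, and 0 lower in limma, also at an unadjusted p under 0.05; without undifferentiated H9 replicate 2 there was 1 lower. The median difference was 0.90; undifferentiated H9 was lower than undifferentiated H1 by a median difference of -0.63, and as EB the median of H9 minus H1 was 0.39. TFAP2B, a factor of crest and its sympathetic derivatives, read 122 and 115 in undifferentiated H1, 387 and 355 in H1 EB, 36.0 and 23.0 in undifferentiated H9, where it was dim, and 1308 and 1230 on the arrays labelled H9 EB. Its paralog TFAP2A rose from 157 and 162 to 1607 and 1620 in H1 and from a dim 54.6 and 60.3 to 2336 and 2396 in H9. The bound for TFAP2A was a 3.00-fold larger rise. For both genes H9 was below H1 on every undifferentiated array and above it on every EB array, and the EB groups were called apart, by 1.73 and 0.55.

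Factors of migrating crest had the same order. TWIST1, a bHLH factor of crest mesenchyme, rose from 194 and 179 to 669.8 and 625 in H1 and from a dim 39.4 and 61.8 to 898 and 977 in H9. Its bound was a 3.40-fold larger rise. PAX3, a border factor, rose from 409.9 and 255 to 1811 and 1831 in H1 and from 132 and 121 to 2639 and 2573 in H9, a difference of 1.77 ± 0.24 (limma adjusted p = 0.000926), and SNAI2, a repressor of epithelial genes, differed by 1.74 ± 0.24. As EB alone the lines were not called apart for PAX3 (0.51, limma adjusted p = 0.0685), TWIST1 or SNAI2. GBX2, a factor of the border and hindbrain, was dim in 3 groups and read 127 and 129.9 on the arrays labelled H9 EB. It passed the filter only through those 2 arrays, so the direction of its call was largely set by the filter. That call is counted among the 12.

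Not all crest genes rose. FOXD3, which serves both crest and pluripotent cells, fell from 564 and 545 to 149 and 185 in H1 and from 777 and 850.4 to 415 and 494 in H9 (0.82 ± 0.18), and EDNRB, the endothelin receptor of crest cells, fell in both lines and less in H9 (0.68 ± 0.10); without probe sets that can match related transcripts the call of EDNRB was lost. DLX5, PAX7 and ETS1 were not called, with differences of -0.60 ± 0.52, 0.029 ± 0.44 and 0.056 ± 0.20. The 3 probe sets of ETS1 spanned 0.06 to 1.61, and 1 of them was called higher. With the mean of all probe sets in place of the brightest, 6 of the 18 were higher, and TFAP2A, MSX1, ZIC1 and FOXD3 were among those that lost the call.

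Neuroectoderm genes split. Of 23 tested 10 (43.5%) were lower in H9 and 6 (26.1%) higher, with a median of -0.23. The lower ones include factors of the anterior neural plate and eye field. PAX6, a regulator of eye and dorsal forebrain, rose from a dim 61.9 and 37.8 to 3295 and 2616 in H1 and from 149.9 and 137 to 1719 and 2010 in H9. Its bound was a 2.79-fold smaller rise. SIX3 rose from a dim 40.7 and 59.9 to 1083 and 1042 in H1 and from 157 and 143 to 648 and 658 in H9. LHX2, a factor of cortex and eye, rose from 76.5 and 156 to 2960 and 2955 and from 326 and 290.2 to 1973 and 1997. In all 3 genes H9 started higher and ended lower, without overlap between the lines in either state. As EB the lines were not called apart for LHX2 (-0.57, limma adjusted p = 0.125).

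OTX2, which marks the anterior neural plate and primed pluripotency alike, rose from 2137 and 2173 to 7355 and 7435 in H1 and from 4003 and 3728 to 5824 and 5801 in H9, a difference of -1.18 ± 0.075 (limma adjusted p = 9.04e-06). EMX2, of dorsal cortex, differed by -1.35 ± 0.19 and STMN2, a tubulin regulator of young neurons, by -1.25 ± 0.10. SOX3 and ZIC2, factors of early neural progenitors, rose in H1 and fell in H9 (-0.86 ± 0.11 and -0.70 ± 0.079). The higher ones are NR2F1, the dorsal neural and crest factor ZIC1 (2.11 ± 0.19), the POU factor POU3F2 (1.52 ± 0.21), and the cytoskeletal genes MAP2 (0.96 ± 0.13), NES (0.86 ± 0.12) and TUBB3 (0.41 ± 0.065). The broad neural genes CDH2 and SOX1 differed by -0.039 ± 0.071 and 0.17 ± 0.17 and were not called. ZIC1, NES and SOX3 lost their calls with the mean of their probe sets.

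Genes of the Notch and retinoid pathways, which act in neural tissue among others, were mixed. HES5, a Notch target of neural progenitors, rose from a dim 49.0 and 59.0 to 574 and 559.6 in H1 and from 196 and 172 to 484 and 424 in H9. Its bound was a 2.76-fold smaller rise. The receptor gene NOTCH2 rose more in H9 (0.69 ± 0.10). In the Notch list of 19, 7 were higher and 4 lower, with 3 to 7 higher and 2 to 5 lower over the 18 alternatives; the 7 became 3 without H9 EB replicate 2 and 4 without H1 EB replicate 2, undifferentiated H1 replicate 1, H9 EB replicate 1 or undifferentiated H9 replicate 1, and the 4 became 2 without H1 EB or H9 EB replicate 1. CYP26A1, which degrades retinoic acid, rose from 449.6 and 355 to 883 and 946 in H1 and fell from 1510 and 1235 to 926 and 896 in H9, so that the EB groups overlapped. Its difference was -1.74 ± 0.17 (limma adjusted p = 0.00013). In the list of retinoid, HOX and TALE genes 3 of 19 were higher and 6 lower, with 0 to 3 and 2 to 7 over the alternatives. The 3 became 0 without H1 EB replicate 1 or 2, H9 EB replicate 2 or undifferentiated H9 replicate 2 and 1 without H9 EB replicate 1 or undifferentiated H1 replicate 1, and the 6 became 3 without H1 EB replicate 2 or H9 EB replicate 1.

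**Figure D3:**
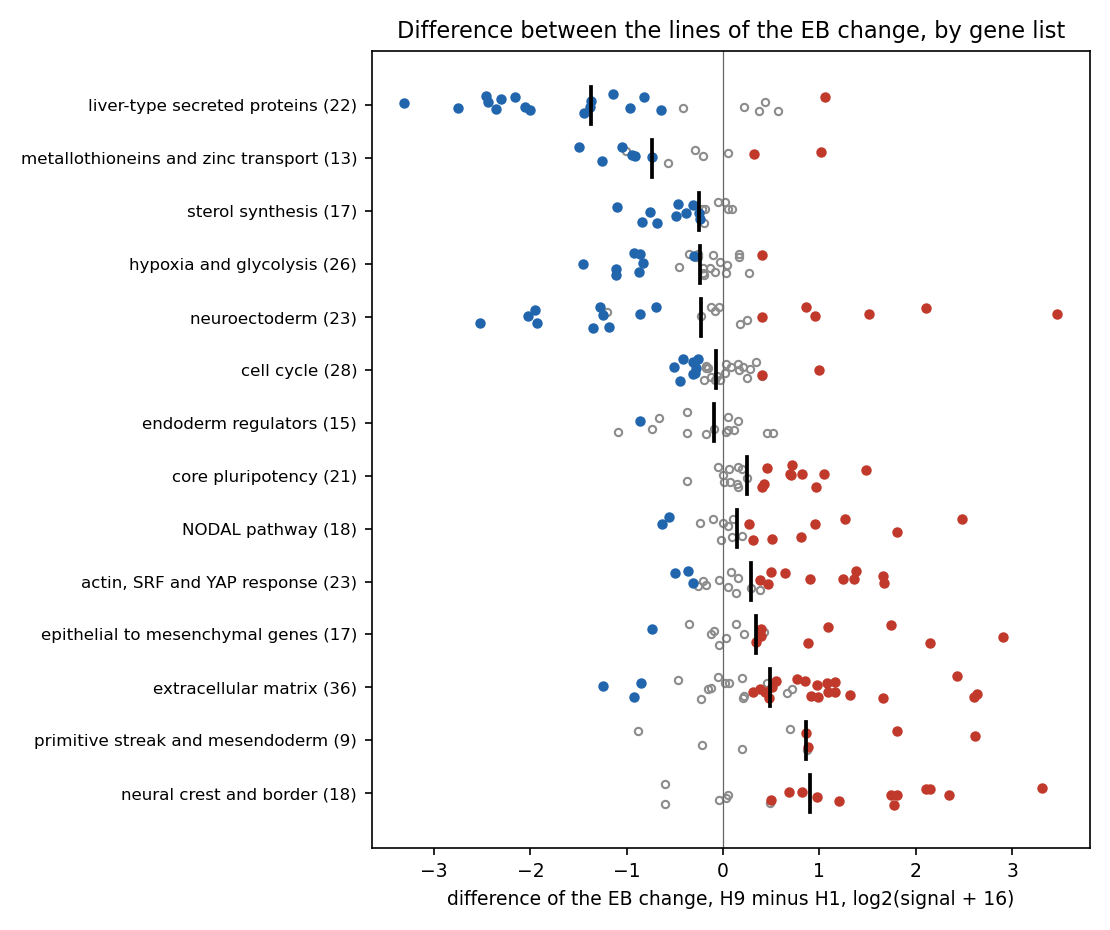
Difference of the EB change, H9 as labelled minus H1, for each tested member (1 point) of 14 gene lists, on log2(signal + 16); the number tested stands in brackets after each name, and filled red, filled blue and open grey points are called higher, called lower and not called. Black bars are list medians, which run from -1.38 for liver-type secreted proteins to 0.90 for neural crest and border.

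Many extracellular matrix genes were higher in H9. Of 36 tested 20 (55.6%, against 11.4% of all genes) were higher and 3 (8.3%, against 11.3%) lower, with a median of 0.49. The median of H9 minus H1 was -0.40 in undifferentiated cells, where 19 genes were called lower in H9, and 0.05 as EB. COL3A1, a fibrillar collagen of loose connective tissue, read 2258 and 1512 in undifferentiated H1, 13327 and 13743 in H1 EB, 185 and 186 in undifferentiated H9, and 8684 and 9096 on the arrays labelled H9 EB. Its difference was 2.60 ± 0.20, and that of LUM, a small proteoglycan with 1004 and 777 against 88.3 and 70.2 in undifferentiated cells, was 2.64 ± 0.20. Both genes started and ended lower in H9 and rose further there.

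COL1A2, a chain of type I collagen, crossed over. It read 5948 and 5412 in undifferentiated H1 against 3190 and 3292 in undifferentiated H9, and 10421 and 10676 in H1 EB against 15525 and 14534 on the arrays labelled H9 EB, a difference of 1.31 ± 0.082 (limma adjusted p = 8.68e-06). TNC, the tenascin of migrating tissues, rose from 465 and 532 to 2281 and 2399 and from 218 and 179 to 3016 and 3148, and crossed over as well. Fibrillin (FBN1, 1.16 ± 0.21), fibronectin (FN1, 1.09 ± 0.19), COL5A2 (1.07 ± 0.088), versican (VCAN, 0.98 ± 0.16) and the link protein HAPLN1 (0.91 ± 0.11) had differences of the same sign. The basement membrane genes NID1 (-0.85 ± 0.087) and NID2 (-0.93 ± 0.15) and the cartilage matrilin MATN3 (-1.25 ± 0.21) were lower in H9. The laminin chain LAMB1 and SPARC, a collagen-binding glycoprotein, were not called (-0.16 ± 0.10 and -0.12 ± 0.082). Another probe set of SPARC was called lower, at -0.74.

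The count of 20 fell to 10 with the mean of all probe sets, and to 10 of 30 tested without probe sets that can match related transcripts. In the latter setting other probe sets gave -0.01 for LUM and -0.32 for FN1, signs opposite to those above, and COL3A1, FBN1 and FN1 lost their calls. Genes of the epithelial to mesenchymal transition had 8 of 17 higher and 1 lower, 3 of them on the crest or matrix lists. VIM, vimentin, read 9531 and 9827 in undifferentiated H1 against 6008 and 5260 in undifferentiated H9 and 16060 and 16249 against 17634 and 17089 as EB (0.89 ± 0.086). CDH1, the epithelial cadherin, fell in H1 and was not called in H9 (0.40 ± 0.069), so genes of both cell states were higher in H9; averaging the probe sets ended the calls of CDH1 and NID1.

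Markers of fibroblast and feeder-type cells moved with the matrix genes, and the called LUM, COL1A1, COL1A2 and COL3A1 stand on both lists. All 12 have a probe set and 8 were above the array median on every array. Their summed signal was 27653 to 28818 in undifferentiated H1, 17977 to 18157 in undifferentiated H9, 49551 to 50260 in H1 EB and 45308 to 47175 on the arrays labelled H9 EB. Of 11 tested 7 were higher in H9 and 0 lower in limma (also 0 lower at an unadjusted p under 0.05), with a median of 0.66; without probe sets that can match related transcripts 2 of 7 were higher. THY1, a surface glycoprotein of fibroblasts and pluripotent cells, differed by 0.079 ± 0.091, and PDGFRB, a receptor of stromal cells, by 0.077 ± 0.30; neither was called. The part of such cells in the matrix result was not tested.

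Of 21 tested core pluripotency genes, which sustain self-renewal, 10 (47.6%, against 11.4% of all genes) were higher in H9 and 0 lower in limma (1 lower at an unadjusted p under 0.05, and 1 lower without replicate 1 of either undifferentiated line), with a median of 0.25. With the mean of all probe sets 6 were higher and 1 lower, and without probe sets that can match related transcripts 9 of 19 were higher and 2 lower. GAL, the neuropeptide galanin, abundant in stem cells, fell from 8183 and 9086 to 2123 and 2105 in H1 and from 2716 and 2773 to 1893 and 1875 in H9, a difference of 1.48 ± 0.086 (limma adjusted p = 5.88e-06). SALL4, a zinc finger factor of pluripotent cells, fell from 3268 and 3615 to 1549 and 1528 in H1 and read 2073 and 2236 and then 1927 and 2082 in H9 (1.05 ± 0.10). DNMT3B, the de novo DNA methyltransferase of stem cells, fell from 24976 and 25382 to 15223 and 16401 in H1 and read 21999 and 21061 and then 22469 and 21577 in H9 (0.70 ± 0.070). SALL4 and DNMT3B were lower in H9 on every undifferentiated array and higher on every EB array.

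Central factors are given next, without POU5F1, which like TDGF1 has only probe sets with several symbols and was not read. NANOG, a homeodomain factor, fell from 9243 and 8885 to 4789 and 4409 in H1 and from 8325 and 8031 to 4703 and 4534 in H9, a difference of 0.16 ± 0.079 (limma adjusted p = 0.186). SOX2, its partner in pluripotent and neural cells, differed by 0.41 ± 0.085 (limma adjusted p = 0.00653), but by -0.06 with the mean of its probe sets. LIN28A and DPPA4 differed by 0.0065 ± 0.080 and 0.003 ± 0.091. Another probe set of DPPA4 was called the other way, at -0.6. In the list of naive and formative genes 3 of 11 were higher and 1, OTX2, lower; the higher ones were DPPA5 (1.73 ± 0.30), NR5A2 (1.18 ± 0.25) and FGF4 (1.49 ± 0.21), the last lost when its probe sets were averaged.

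NODAL, a ligand that maintains pluripotency and induces mesendoderm, fell from 1226 and 1106 to 696 and 645 in H1 and rose from 386 and 501 to 909 and 917 in H9, a difference of 1.81 ± 0.17 (limma adjusted p = 7.72e-05). Its feedback inhibitor LEFTY1 fell from 1668 and 1449 to 202 and 243 in H1 and from 929 and 1132 to 351 and 378 in H9 (1.27 ± 0.18). For both genes H9 was lower on every undifferentiated array and higher on every EB array. INHBA, the activin A subunit, was dim in undifferentiated H9 (38.8 and 34.4) and read 192 and 196 in undifferentiated H1, 137 and 144 in H1 EB and 213 and 192 on the arrays labelled H9 EB. FST, follistatin, which binds activin, rose from 1004 and 1000 to 10608 and 10582 in H1 and from 1229 and 1333 to 13502 and 13409 in H9; the 95% interval of the difference runs from -0.18 to 0.17. In the pathway 8 of 18 were higher and 2 lower, and the 8 became 5 without any of 5 single arrays (H1 EB replicate 1 or 2, undifferentiated H1 replicate 1 or 2, or H9 EB replicate 2). INHBA was no longer called when its probe sets were averaged.

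Genes of the primitive streak, where mesendoderm forms, overlap this pathway. Of 9 tested 4 were higher and 0 lower in limma (also 0 lower at an unadjusted p under 0.05, but 1 without undifferentiated H1 replicate 1). The 4 are NODAL, FGF8, EOMES and SP5. FGF8, a streak and midbrain ligand, read 90.1 and 53.2 in undifferentiated H1 and 112 and 119 in H1 EB. It read a dim 3.44 and 5.03 in undifferentiated H9 and 177 and 172 on the arrays labelled H9 EB. Its bound was a 1.45-fold larger rise. EOMES, a T-box factor, rose from 510.1 and 557 to 1241 and 1200 and from 254 and 248 to 1161 and 1029 (0.88 ± 0.14). TBXT, brachyury, differed by 0.20 ± 0.30 and was not called.

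In the FGF list 7 of 27 were higher and 4 lower, with a median of -0.01. The inhibitor gene IL17RD rose more in H9 (0.87 ± 0.074), the receptor gene FGFR3 rose less (-0.73 ± 0.12), and DUSP6, a phosphatase that ERK induces, read 4411 and 4853 and then 4523 and 4132 in H1 and fell from 7394 and 7251 to 3680 and 3642 in H9 (-0.90 ± 0.088). In the WNT list 7 of 26 were higher and 5 lower, with 3 to 8 and 1 to 5 over the alternatives and 4 higher without H1 EB replicate 2, undifferentiated H1 replicate 2 or H9 EB replicate 1. RSPO3, a ligand that potentiates WNT, rose from 170.1 and 159 to 10157 and 11021 in H1 and from 354 and 341 to 9842 and 9258 in H9 (-1.16 ± 0.10), and the receptor gene FZD2 rose less in H9 (-0.98 ± 0.11), while the WNT target SP5 rose more (0.86 ± 0.18). DKK1, a secreted WNT inhibitor with one of the largest rises in both lines, differed by 0.11 ± 0.18. In the BMP list 6 of 23 were higher and 3 lower, with 3 to 7 and 0 to 4 over the alternatives and 3 and 1 without H1 EB replicate 1 or H9 EB replicate 2. The antagonist GREM1 rose from 466 and 388 to 2854 and 2677 in H1 and from 216 and 242 to 5110 and 5053 in H9, a difference of 1.72 ± 0.14 (limma adjusted p = 3.75e-05), while the BMP targets ID1 and ID4 were not called (0.23 ± 0.076 and -0.13 ± 0.095).

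Metallothioneins are small proteins that bind zinc and copper and are induced by metal through the factor MTF1. Of 13 tested genes on the list with zinc transporters 6 (46.2%, against 11.3% of all genes), all metallothioneins, were lower in H9 and 2 (15.4%, against 11.4%) higher, with a median of -0.73; the median of H9 minus H1 was 0.71 in undifferentiated cells and -0.01 as EB. Without probe sets that can match related transcripts 5 could be tested, of which 0 were lower and 1 higher, with a median of -0.21. Promoters are shown for 3 of the 6 called metallothioneins, since the promoter reference used holds no entry for MT1E, MT1F and MT1G. Capitals mark matches of the core of the metal response element, TGCACNC or TGCGCNC on either strand with overlaps counted, in the 250 bases before the RefSeq start on GRCh38.p14 (MT1H chr16:56669564-56669813, MT1X chr16:56682220-56682469 and MT2A chr16:56608334-56608583, all on the plus strand).
MT1H: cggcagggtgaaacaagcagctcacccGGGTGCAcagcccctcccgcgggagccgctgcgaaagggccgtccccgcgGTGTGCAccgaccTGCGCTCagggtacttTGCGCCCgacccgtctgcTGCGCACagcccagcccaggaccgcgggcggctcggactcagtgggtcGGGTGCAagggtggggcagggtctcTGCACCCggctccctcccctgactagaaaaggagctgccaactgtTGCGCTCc
MT1X: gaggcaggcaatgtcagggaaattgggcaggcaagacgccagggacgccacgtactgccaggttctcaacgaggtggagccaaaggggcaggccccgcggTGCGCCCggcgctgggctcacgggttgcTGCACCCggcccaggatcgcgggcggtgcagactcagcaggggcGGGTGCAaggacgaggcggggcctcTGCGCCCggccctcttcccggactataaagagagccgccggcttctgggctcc
MT2A: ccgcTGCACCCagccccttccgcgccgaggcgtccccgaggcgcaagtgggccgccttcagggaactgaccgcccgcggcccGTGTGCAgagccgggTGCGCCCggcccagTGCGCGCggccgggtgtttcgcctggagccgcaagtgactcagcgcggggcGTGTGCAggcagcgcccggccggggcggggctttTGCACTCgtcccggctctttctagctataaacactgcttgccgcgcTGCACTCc
These windows hold 8, 4 and 7 matches. At least 1 match stands in 24.8% of 35116 RefSeq promoters of that length (31.0% of 16531 promoters of tested genes), and at least 3 in 1.58% (2.15%). A match is a description of the letters and not a site shown to be bound.

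All 6 called metallothioneins were lower in H9, with undifferentiated H9 the highest group of each. MT2A, the main human isoform, read 5864 and 5839 in undifferentiated H1, 3187 and 3565 in H1 EB, 11706 and 9817 in undifferentiated H9, and 3274 and 3114 on the arrays labelled H9 EB, a difference of -0.95 ± 0.12 (limma adjusted p = 0.000455). MT1X fell from 8653 and 8914 to 2701 and 2587 and from 16488 and 12909 to 2644 and 2632 (-0.73 ± 0.13), and MT1H from 6313 and 6342 to 3198 and 3227 and from 12290 and 10166 to 3253 and 2785 (-0.91 ± 0.13). The EB groups overlapped for MT1X, MT1H and MT2A. MT1E (-1.49 ± 0.11), which was not called in H1, MT1F (-1.25 ± 0.11) and MT1G (-1.05 ± 0.10) had the same sign. These genes are near-identical copies and all 6 were read by probe sets that can match several of them, so they are not 6 separate readings; without such probe sets none of them could be tested. MT1M (-1.01 ± 0.37, limma adjusted p = 0.0756) and MT3 (-0.57 ± 0.40, limma adjusted p = 0.341), read by probe sets of the other kind, were not called.

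No zinc transporter gene was called lower. SLC30A1, the zinc exporter that MTF1 also induces, differed by -0.21 ± 0.087 (limma adjusted p = 0.108) and was not called. SLC39A8, a zinc and manganese importer (1.01 ± 0.10), and its relative SLC39A14 (0.33 ± 0.062) were higher in H9, calls that averaging the probe sets ended.

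Of 17 tested genes of sterol synthesis 10 (58.8%, against 11.3% of all genes) were lower in H9 and 0 higher in limma (also 0 higher at an unadjusted p under 0.05), with a median of -0.25; the median of H9 minus H1 was 0.36 in undifferentiated cells and 0.02 as EB. INSIG1, a sensor that restrains the pathway and is induced by the factor SREBP2, read 3651 and 3635 in undifferentiated H1, 2370 and 2537 in H1 EB, 5897 and 5745 in undifferentiated H9, and 1892 and 1762 on the arrays labelled H9 EB, a difference of -1.10 ± 0.085 (limma adjusted p = 3.32e-05). MSMO1, a sterol demethylase, rose from 10036 and 10329 to 11486 and 11202 in H1 and fell from 15938 and 15677 to 9623 and 9983 in H9 (-0.84 ± 0.064). Both were higher in undifferentiated H9 and lower on the arrays labelled H9 EB, with no overlap. The synthase HMGCS1 (-0.76 ± 0.070), the sterol carrier STARD4 (-0.69 ± 0.084), SQLE (-0.49 ± 0.079) and FDPS (-0.47 ± 0.064) had the same sign. With limma run without the trend and robust options 6 were called.

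**Figure D4:**
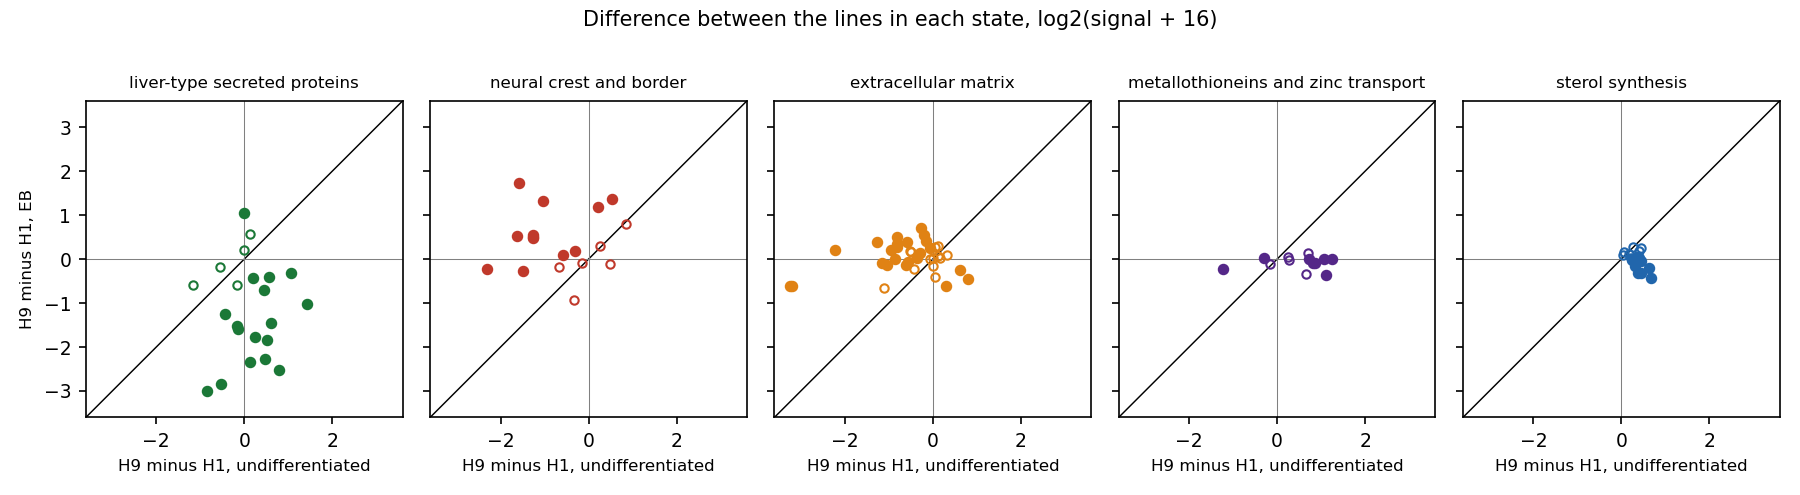
Difference between the lines, H9 as labelled minus H1, in undifferentiated cells (horizontal axis) and as EB (vertical axis) for each tested member (1 point) of 5 gene lists, on log2(signal + 16); filled points were called for the difference of the EB change and the diagonal marks no such difference. The list medians were 0.13 before and -1.14 as EB for liver-type genes, -0.40 and 0.05 for matrix genes, and 0.36 and 0.02 for sterol genes.

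Other metabolic and stress lists differed in part. Of 26 genes of hypoxia and glycolysis 8 were lower and 1 higher (2 higher without undifferentiated H9 replicate 1), with a median of -0.23. BNIP3L, a mitophagy receptor, read 4583 and 4344 and then 5063 and 4913 in H1 and fell from 6249 and 5287 to 3470 and 3530 in H9 (-0.87 ± 0.10), and the glycolytic genes ALDOC (-0.86 ± 0.15) and ENO2 (-0.83 ± 0.12) had the same sign. The abundant enzymes ENO1, TPI1 and PGAM1 were not called (0.044 ± 0.070, -0.035 ± 0.076 and -0.11 ± 0.064), though another probe set of TPI1 was called higher, at 0.93. Of other glycolytic enzymes PGK1 was called lower (-0.30) and GAPDH higher (0.41), calls lost in 8 of 18 and 2 of 17 alternatives. The calls of HK2, P4HA1 and ANKRD37 were lost with the mean of their probe sets.

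Of the amino acid transport genes of the ATF4 response SLC7A11 and SLC7A5 moved in opposite directions in the lines. SLC7A11, the cystine transporter, fell from 2873 and 2463 to 2150 and 2086 in H1 and rose from 1291 and 1490 to 3163 and 3203 in H9, a difference of 1.52 ± 0.12 (limma adjusted p = 4.05e-05). SLC7A5, a transporter of large neutral amino acids, fell in H1 and rose in H9 (1.03 ± 0.093), and its partner SLC3A2 rose in H9 without being called in H1 (0.79 ± 0.087). In the whole list 7 of 23 were higher and 2 lower, and without probe sets that can match related transcripts 4 of 11 were higher. ATF4 itself and ASNS, asparagine synthetase, were not called (0.24 ± 0.094 and 0.20 ± 0.078). Cell cycle genes had 8 of 28 lower and 2 higher, with 3 to 10 and 1 to 4 over the alternatives. The 8 became 5 without H1 EB replicate 1 or 2 or H9 EB replicate 2, and the 2 became 1 without H9 EB replicate 2 and 4 without undifferentiated H9 replicate 2. CDK1, the mitotic kinase (-0.44 ± 0.066), and BUB1B, a spindle checkpoint kinase (-0.41 ± 0.080), were the lower ones that kept their calls throughout.

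Genes of the actin cytoskeleton and of its factors SRF and YAP differed in part. Of 23 tested 10 (43.5%, against 11.4% of all genes) were higher in H9, 3 (13.0%, against 11.3%) were lower and 10 were not called, with a median of 0.29. The lower ones are CNN2 (-0.36 ± 0.089) and CNN3 (-0.31 ± 0.072), calponins, and AJUBA (-0.50 ± 0.092), a LIM protein of cell junctions. The promoter of ACTG2, a smooth muscle actin, is shown since SRF acts through the CArG box; capitals mark its 2 CArG boxes (both strands searched) in chr2:73892758-73893007 of GRCh38.p14, plus strand. Only the strict form CCWWWWWWGG, with W for A or T, was counted. It stands in 1.2% of 35116 RefSeq promoters of that length. The promoter of ACTA1 holds 1 match, and neither listed promoter of ACTA2 holds this strict form. The ACTA2 window at chr10:88952774-88953023 holds ccctatatgg, which misses it in a single letter.
ACTG2: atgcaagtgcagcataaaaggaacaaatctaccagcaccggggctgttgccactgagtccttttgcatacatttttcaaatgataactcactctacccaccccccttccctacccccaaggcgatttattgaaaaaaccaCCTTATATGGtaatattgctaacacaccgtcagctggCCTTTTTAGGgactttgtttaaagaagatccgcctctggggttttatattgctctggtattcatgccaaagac
ACTG2 fell from 465 and 538 to 172 and 119 in H1 and read 275 and 220.4 and then 213 and 178 in H9, a difference of 1.38 ± 0.27 (limma adjusted p = 0.00457).

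CCN2, a matricellular YAP target, fell from 7185 and 6659 to 1194 and 1310 in H1 and from 4299 and 4581 to 1895 and 1927 in H9 (1.24 ± 0.094, limma adjusted p = 3.26e-05), and its relative CCN1 differed by 0.64 ± 0.094. ACTA2, another smooth muscle actin, fell in H1 from 1398 and 1261 to 1012 and 1018 and rose in H9 from 434 and 384 to 1005 and 1036 (1.67 ± 0.13). H9 was lower on every undifferentiated array of these genes, while the EB groups of ACTA2 overlapped. Transgelin (TAGLN) fell in H1 and was not called in H9 (1.36 ± 0.12). With the mean of all probe sets 4 were higher, without ACTG2 and ACTA2, and without probe sets that can match related transcripts 6 of 17 were, without TAGLN. ACTB, SRF and TPM1, a tropomyosin, were not called (0.15 ± 0.11, 0.14 ± 0.21 and -0.037 ± 0.065). EB of both lines were in Y-27632, which acts on this pathway, so the state and the compound cannot be told apart.

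Of 17 imprinted genes tested 2 (11.8%, near the 11.4% of all genes) were higher and 4 (23.5%, against 11.3%) lower. NNAT read 785 and 864 in undifferentiated H1, 2995 and 2937 in H1 EB, a dim 43.7 and 27.4 in undifferentiated H9, and 1713 and 1889 on the arrays labelled H9 EB. CDKN1C, an inhibitor of cyclin-dependent kinases, rose from 1121 and 1041 to 5532 and 5574 in H1 and from 1736 and 1935 to 3900 and 3566 in H9 (-1.33 ± 0.10), and PEG10, of placenta, rose less in H9 (-0.87 ± 0.076). NLRP2, of the inflammasome receptor family, read higher in H9 by 4.62 when undifferentiated and by 4.60 as EB, the widest gap on the list, while the difference of its EB change was -0.020 ± 0.13 and not called.

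Among 281 genes (8.82% of those called) the change was called in opposite directions. COL8A1 read 494 and 421 in undifferentiated H1 and 160.1 and 98.1 in H1 EB, and a dim 34.8 and 44.0 in undifferentiated H9 and 142 and 146 on the arrays labelled H9 EB. DACT1, a modulator of WNT and TGF-beta signalling, fell from 3047 and 2808 to 1380 and 1248 in H1 and rose from 771 and 874 to 1632 and 1688 in H9. TIMP4, an inhibitor of matrix proteases, fell from 526 and 445 to 209 and 224 in H1 and rose from 112 and 116 to 227 and 215 in H9. In each of the 3, H9 was the lower on every undifferentiated array; the EB groups overlapped for COL8A1 and TIMP4, and H9 was the higher for DACT1.

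Many large changes were alike. Of 5531 genes called in both lines and dim in no group, 2651 had a 95% interval of the difference within 0.5 of 0. CXCR4, a chemokine receptor of early endoderm, rose from 329.5 and 262 to 5376 and 5319 in H1 and from 334 and 286 to 5475 and 5070 in H9 (-0.090 ± 0.15). KITLG, the ligand of KIT (0.077 ± 0.10), ACKR3, a scavenging chemokine receptor (-0.14 ± 0.15), and EPHA4, an ephrin receptor (-0.14 ± 0.093), also rose alike within that interval. LCK, a tyrosine kinase best known from T cells, fell from 4006 and 4016 to 714 and 793 in H1 and from 3955 and 4031 to 730.5 and 777 in H9, and the groups of the lines overlapped in both states.

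In the remaining lists shares are to be read against 11.4% higher and 11.3% lower over all genes. Mesoderm and cardiovascular genes had 3 of 18 (16.7%) higher and 1 (5.6%), HAND1, a factor of heart and amnion, lower (-0.98 ± 0.24, a call lost without H1 EB replicate 1, H1 EB replicate 2 or H9 EB replicate 2). Trophoblast and amnion genes had 2 of 16 (12.5%) higher and 4 (25.0%) lower. Surface ectoderm genes had 4 of 19 (21.1%) higher and 2 (10.5%) lower, and p53 targets and inhibitors of the cell cycle 3 of 20 (15%) higher and 5 (25.0%) lower. Immediate early genes had 2 of 17 (11.8%) higher and 1 (5.9%) lower, and chemokine, interferon and antigen presentation genes 5 of 28 (17.9%) higher and 4 (14.3%) lower, among them CXCL5, a neutrophil attractant, which fell further in H9 (-0.94 ± 0.11), and CXCL12, the ligand of CXCR4, which fell in H1 and was not called in H9 (0.96 ± 0.089). None of 5 tested blood and immune genes was called in limma, with 0 at an unadjusted p under 0.05 and 1 lower without H1 EB replicate 2. In mature tissue markers 1 of 8 was lower (ALB) and 0 higher, with 2 lower and 0 higher at an unadjusted p under 0.05. Housekeeping genes had 2 of 11 higher and 1 lower; of these GAPDH and PPIA lost their calls under quantile normalization. Single arrays decided many of these small counts: without H9 EB replicate 2 the higher calls were 1 in mesoderm, 1 in surface ectoderm and 1 in trophoblast genes, without H1 EB replicate 1 they were 1 in mesoderm, 2 in surface ectoderm and 1 in p53 genes, and without H1 EB replicate 2 they were 1 in mesoderm, 2 in surface ectoderm and 3 in chemokine genes. Without undifferentiated H1 replicate 2 they were 1 in mesoderm, surface ectoderm, trophoblast and housekeeping genes, and without H9 EB replicate 1 they were 1 in mesoderm, p53 and housekeeping genes. Without undifferentiated H9 replicate 1 the lower calls in mesoderm genes were 3, and without undifferentiated H9 replicate 2 the chemokine genes had 3 higher and 2 lower. No omitted array moved the 16 lower liver-type, 12 higher crest, 10 lower neuroectoderm, 20 higher matrix or 10 lower sterol genes by more than 1.5 times.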

How the data were processed

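Signals of 54675 probe sets on 8 arrays were read from the deposited linear intensity values, which the authors computed with MAS5 according to the submitters' processing notes; its version is not given in the sources used here. MAS5 scales each array to a common trimmed mean, so differences are relative to the bulk of transcripts. Gene symbols came from the platform annotation. Of 41091 probe sets with 1 symbol 41037 were matched by Entrez identifier, which changed 0 symbols. Probe sets left out were 1801 with several symbols, 11721 unnamed and 62 controls, as were 35 genes (Y chromosome, XIST, TSIX). A gene was read by its brightest probe set. Contrasts of 4 group means on log2(signal + 16) were tested with limma 3.58.1 in R 4.3.3 (lmFit, eBayes with trend and robust options, 4 residual degrees of freedom), with Benjamini-Hochberg adjustment over 14041 genes and a threshold of 0.05. The fitting code was tested on simulated data. Precision is limited by having 2 arrays per group.

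The contrast, the 32 gene lists and the naming rule were chosen with earlier results of these data known. The rule took the 15 largest called differences in each direction among genes dim in no group whose H9 and H1 array differences did not overlap, the 8 largest bounds in each direction, from each list the 4 members of smallest p, 6 genes with opposite changes, the silent genes, 8 genes in each direction that changed alike, SOX2 and NANOG. Every called gene, 1604 higher and 1581 lower, met the condition of no overlap, so it removed none of them. Other list members printed were chosen after their values were seen. Replicate numbers did not pair the samples: deviations of same-numbered arrays from their group means correlated at -0.046 to 0.056. Alternatives were another offset, filter, scaling, summary of probe sets, moderation, a replicate block, a minimum change and the omission of each array.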

Additional observations from a re-analysis of the deposited data

Results flagged for a closer look

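Of the genes named, 6 were picked out because the EB change was called in opposite directions in the lines and the difference itself was tested in limma. COL8A1, a short-chain collagen, fell in H1 and rose in H9 as labelled, with a difference of 3.2723 on the log2 scale. GRIP2, a synaptic scaffold protein, differed by 2.844, but was dim in H1 EB and in undifferentiated H9. DACT1, a modulator of WNT signalling, differed by 2.1478, the histone gene H2AC6 by 2.0772, and the protease inhibitor TIMP4 by 1.971. CYP2B7P, a cytochrome P450 pseudogene whose probe set could read its paralog, went the other way, by -2.268. Its call was lost in 5 of the 17 alternatives run for it, H1 EB replicate 1 and either array labelled H9 EB left out among them. The part of the 2 libraries that went against their labels was not tested.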

How the results depend on the processing

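The counts of 1604 genes higher and 1581 lower became 974 and 1025 in limma without the trend and robust options, 827 and 806 with the mean of all probe sets, and 128 and 101 when a difference of more than 0.5 was required. Leaving out 1 array at a time gave 995 to 1616 higher and 1022 to 1485 lower. With the replicate number as a block, which is no pairing stated by the labels, the counts were 1540 and 1520. Centring gave 1084 and 2112. Not all of the 18 alternatives could be run for every gene, since some genes have only probe sets that can match related transcripts. Of 145 called genes named by rule, 91 kept direction and call in every alternative run for them and 54 lost the call in at least 1. Among these directions turned with the mean of all probe sets for MEIOC (0.0204), SMAD4 (0.2605) and SOX2 (-0.0622), without probe sets that can match related transcripts for LUM (-0.0144), SMAD4 (0.3439) and JUN (-0.3034), and with quantile normalization for PPIA (-0.0064); the cause was not tested. Of 239 called list members, 105 kept call and direction in every alternative run for them. The call was lost with the mean of all probe sets for 93, and without at least 1 single array for 69. Direction turned in at least 1 alternative for 16. With the mean of all probe sets 11 turned, among them BUB1 to 0.38 and SMAD1 to 0.26. Without probe sets that can match related transcripts 7 turned, among them FN1 to -0.32 and APOA1 to 0.06. Dim signals limit what can be said of genes near background, and 2 arrays per group limit every test.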
